A study of Mus musculus with 36 samples.

Results

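The 4T1 primary tumors at 1 w p.i. (1 week post-inoculation) were compared with mammary glands of the same strain and time point that had received the carrier alone. The comparison comprised 6 of the 36 RNA-seq libraries of the series, chosen by their titles: 3 libraries of 4T1 tumors (tumors 1, 2 and 3) and 3 libraries of Matrigel-injected BALB/c glands (glands 1, 2 and 3). 4T1 is a mouse mammary carcinoma line that arose in BALB/c mice, serves as a model of triple-negative breast cancer and was used here as a luciferase-expressing derivative. Both groups were female BALB/c mice that had been mated at 8 weeks of age and had lactated, and the inoculum entered the duct of the third mammary gland shortly after the pups were weaned. Tumor mice received 4T1 cells in PBS with Matrigel, a basement membrane extract, and control mice received the carrier without cells. The tissue was bulk and no cells were sorted, so that host gland and tumor cells were read together and every gland was in involution after lactation. In such samples, fewer cells of a type and less RNA per cell cannot be told apart. The labels do not say whether the 3 libraries of a group came from separate mice. The p-values and standard errors (SE) rest on the spread between libraries within groups, taken over all 36 libraries in 12 groups. For a gene that varied more within the groups compared than within the others, they understate its spread there.

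Weaning starts involution, in which the milk-producing epithelium dies, macrophages and other leukocytes clear it, and adipocytes refill the gland and take up lipid synthesis again. A tumor that grows within the ducts at that time meets a tissue that is already being remodelled. A type 1 and a type 2 arm of immunity can be read from RNA in such a gland. In the type 1 arm, IFN-γ from cytotoxic T-cells and NK cells induces antigen presentation and chemokines such as Cxcl9 and Cxcl10, whereas in the type 2 arm the cytokines IL-4 and IL-13 act through STAT6 on macrophages to induce Retnla, Chil3, Mgl2 and the chemokines that draw eosinophils and regulatory T-cells (Treg).

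The deposited value of a gene is a score, standardized within each library, so that a score of 0 is the mean gene of that library and 1 unit is the SD over all genes of the table. Across the genes whose authors' mean normalized count was 100 or more, 1 score unit corresponded to 2.25 to 2.68 log2 units of expression in the 6 libraries, which describes the scale and does not turn a difference into a fold. Depth cannot be read from scores, and the precision of each value rests on the replicates. The 6 libraries did not fall into 2 even groups. On the first principal component, which held 62.9% of their variance, tumors 1 and 3 lay at -21.6 and -19.5 and tumor 2 at -0.116, inside the range of the glands, which lay at 9.71, 34.3 and -2.76. Gland 2 therefore stood apart from its own group and tumor 2 lay near the other group. No pair of the 36 libraries was a copy, the highest correlation being 0.993.

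With all libraries, 3601 of 21650 genes were called (16.6%; limma, Benjamini-Hochberg adjusted p under 0.05), of which 2146 were higher in 4T1 tumors (9.91% of all genes) and 1455 lower (6.72%). All 3 tumors lay above all 3 glands for 16.2% of all genes and below them for 16.1%. These shares are the background for every count of calls, or of genes without overlap, given further on. Restricted to differences of at least 0.5 score units, 426 genes were higher (1.97%) and 90 lower (0.416%). The median difference over all genes was -0.00677. The number of calls rested on single libraries. Without tumor 3, 16 genes were higher and 16 lower, without gland 2 there were 73 and 60, and without tumor 1 there were 278 and 196. Without tumor 2 the counts were 3169 higher and 2145 lower. A fit of the 6 libraries alone called 0 genes at the same threshold, with 5181 genes at an unadjusted p under 0.05 (7379 in the fit of all libraries). None of the 153 called genes among the 471 listed or named ones was called under every alternative, which the 0 calls of the fit of 6 libraries fixed in advance. Rnase2a, Gzma and Ctla4 lost the call in that fit only. None of the 471 turned its direction while called. An exact permutation test of 3 against 3 libraries cannot go below 0.1.

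**Figure D1:**
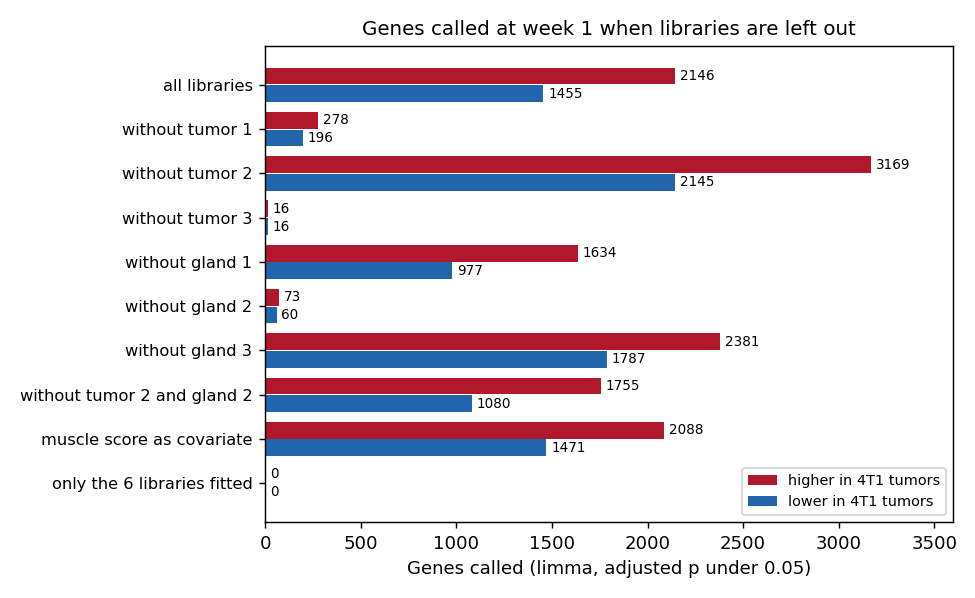
Number of genes called higher (red) and lower (blue) in 4T1 tumors than in BALB/c Matrigel glands at 1 w p.i., with all libraries and with libraries left out or the fit changed. The counts fell to 16 and 16 without tumor 3 and rose to 3169 and 2145 without tumor 2.

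Skeletal muscle RNA differed widely between libraries of both groups. The mean score of 14 muscle genes was -0.649, 1.53 and 0.607 in tumors 1, 2 and 3 and 1.23, 2.23 and -0.496 in glands 1, 2 and 3, so that the groups overlapped and the libraries spanned almost 3 score units. By limma, 0 of these genes were called, 0 reached an unadjusted p under 0.05, and the fast myosin Myh4 read -0.521, 2.52 and 1.54 in the tumors and 2.3, 3.2 and -0.0506 in the glands. With the muscle mean as a covariate, 2088 genes were called higher and 1471 lower, and 3335 of the genes called were shared with the fit without it. Gland 2 stood apart in fat and blood genes too. Ucp1, the uncoupling protein of brown and beige fat, read -1.8, -2 and -1.98 in the tumors and -1.66, 1.63 and -1.75 in glands 1, 2 and 3, so that it was high in gland 2 alone. The 5 erythroid genes, whose globin members are near-identical copies, had mean scores of -0.665, -0.557 and -0.422 in the tumors and -0.0572, 0.692 and -0.471 in the glands, with 0 called and 3 lower at an unadjusted p under 0.05. The part of these tissues in the differences reported here was not tested beyond the muscle covariate and the counts without gland 2.

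By size, the leading differences included 1 eosinophil-associated ribonuclease and genes of macrophages exposed to type 2 cytokines. Among called genes without overlap between the groups whose mean normalized count was 100 or more, the 10 highest in 4T1 tumors were Rnase2a, Chil3, Clca1, Pdcd1lg2, Cd209e, F10, Mmp13, Ccl22, F7 and Serpina3g. They comprise an eosinophil-associated ribonuclease (Rnase2a), a chitinase-like protein of alternatively activated macrophages (Chil3), a secreted regulator of chloride channels in mucosal inflammation (Clca1), the checkpoint ligand PD-L2 (Pdcd1lg2), a C-type lectin (Cd209e), coagulation factors X and VII (F10, F7), collagenase 3 (Mmp13), the CCR4 ligand Ccl22 and a serine protease inhibitor of activated leukocytes (Serpina3g). Their differences ranged from 1.16 to 2.13 score units. The 10 lowest were Gm11295, Elovl6, Marc1, Slc2a5, Thrsp, Kcnk3, Gm7049, Gm5182, Tph1 and Acss3, with differences from -1.04 to -0.843. Among these are a fatty acid elongase (Elovl6), a regulator of lipogenesis (Thrsp), the fructose transporter GLUT5 (Slc2a5), a potassium channel (Kcnk3) and the enzyme that starts serotonin synthesis (Tph1), a local regulator of lactation. Gm11295, Gm7049 and Gm5182 are predicted genes, and it was not tested whether their reads were shared with other genes. Of the 20 genes, 19 lost the call without tumor 3, 16 without gland 2 and 16 without tumor 1. Rnase2a was the exception without tumor 3, with a difference of 1.85 and an adjusted p of 0.0135.

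**Figure D2:**
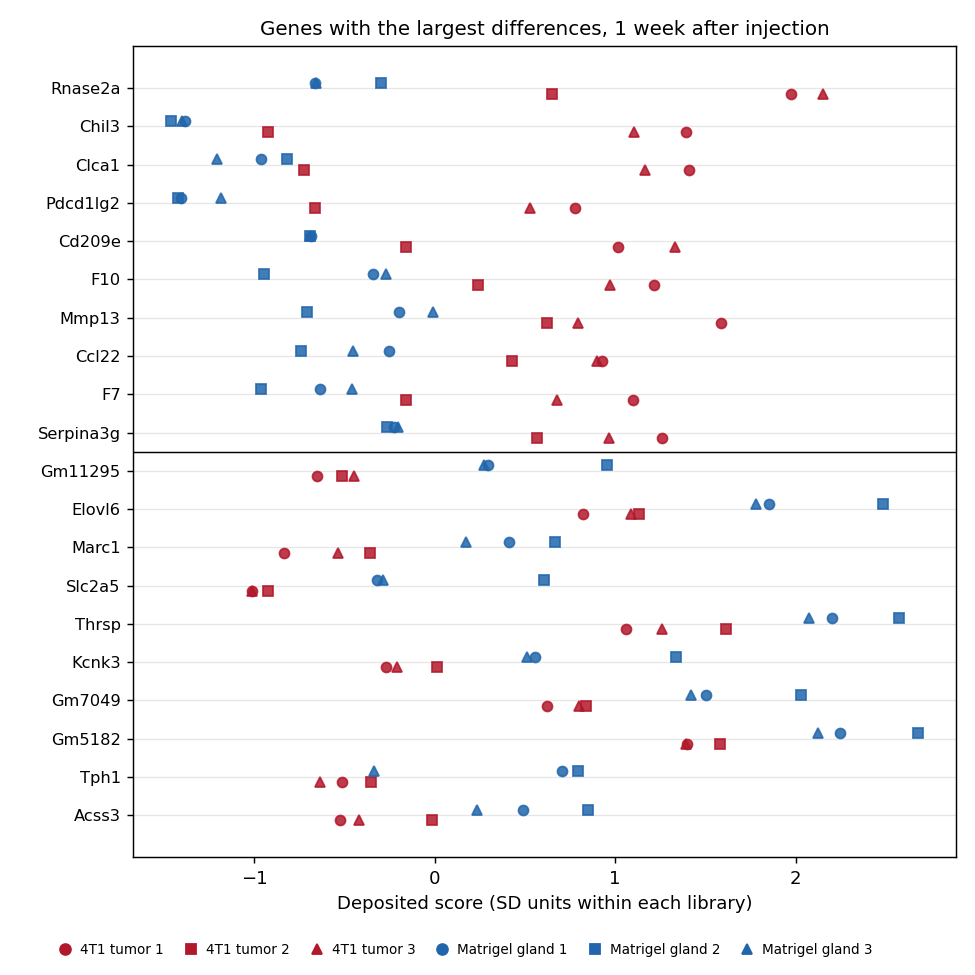
Deposited scores (x-axis, SD units within each library) of the 10 genes with the highest and the 10 with the lowest difference between 4T1 tumors (red) and BALB/c Matrigel glands (blue) at 1 w p.i., 1 point per library. Tumor 2 (red square) lay between tumors 1 and 3 and the glands for each of the 10 upper genes, and gland 2 (blue square) was the highest gland for each of the 10 lower genes.

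Rnase2a (chr14:51255262-51256112, mm10) read 1.97, 0.652 and 2.15 in tumors 1, 2 and 3 and -0.664, -0.301 and -0.662 in glands 1, 2 and 3. Tumors 1 and 3 were far above the glands and tumor 2 lay halfway. The difference was 2.13 ± 0.304 (SE), with an adjusted p of 0.000881. Its SD was 0.82 in the tumors and 0.209 in the glands. The list of eosinophil genes had 9 measured members, of which 6 were called higher and 0 lower, with a median difference of 0.476 and 5 members without overlap between the groups. Ear2, another ribonuclease of the same family, read 1.81, 0.877 and 1.72 in the tumors and 0.423, 0.0309 and 0.545 in the glands, a difference of 1.14 ± 0.217 (adjusted p = 0.00467). Siglecf, a surface lectin that marks mouse eosinophils, read 0.433, -0.149 and 0.417 in the tumors and -0.494, -0.596 and -0.392 in the glands, a difference of 0.728 ± 0.193 (adjusted p = 0.0149). Tumors 1 and 3 were again higher than tumor 2 for both genes. Prg2, which encodes the major basic protein of eosinophil granules, differed by 0.481 ± 0.143 (adjusted p = 0.0258). Ear1 and Ear7 were called too, at mean normalized counts of 5.2 and 4.99 and with overlap, and the Ear genes are near-identical copies whose reads the authors' counting could have split. Ccr3, the eotaxin receptor, was not called at 0.476 ± 0.252 (adjusted p = 0.182), and the eotaxin Ccl11 differed by 0.311 ± 0.121 (adjusted p = 0.0726). Il5ra was not called either, at 0.292, and the listed gene Epx was not measured. Which cells made these RNAs in the bulk tissue was not tested. Of the list, 1 were called without tumor 3, 1 without gland 2 and 2 without tumor 1, and without tumor 2 all 9 were.

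Of 7 genes of alternatively activated macrophages, 6 were called higher and 0 lower, with a median difference of 0.805. Chil3 read 1.39, -0.923 and 1.11 in tumors 1, 2 and 3 and -1.38, -1.46 and -1.4 in glands 1, 2 and 3. The glands were nearly equal to each other, tumor 2 was slightly above them, and tumors 1 and 3 were more than 2 score units higher, which gave a difference of 1.94 ± 0.437 (adjusted p = 0.00767). The SD of Chil3 was 1.26 in the tumors and 0.0419 in the glands. The SE, taken from all 12 groups, does not show this wide spread of the tumors. Retnla (chr16:48842551-48844461, mm10), which encodes the secreted protein RELMα, read 2.68, 2.03 and 2.83 in the tumors and 1.42, 1.52 and 1.53 in the glands, with all tumors above all glands and a difference of 1.02 ± 0.244 (adjusted p = 0.0093). The macrophage lectins Mgl2 and Clec10a differed by 0.968 ± 0.192 and 0.522 ± 0.155 (adjusted p = 0.00503 and 0.0254). The receptor subunit Il4ra, through which IL-4 and IL-13 signal, differed by 0.548 ± 0.137 (adjusted p = 0.0112). Ccl24, an eosinophil attractant made by such macrophages, differed by 0.805 ± 0.217 (adjusted p = 0.0163). Arginase 1 (Arg1) was the member that was not called. It read 2.11, 0.915 and 1.6 in the tumors and 1.05, 0.543 and 0.971 in the glands, so that tumor 2 lay within the glands (difference 0.686 ± 0.262, adjusted p = 0.0689). Il4 itself was near the floor of expression and was called at 0.206 ± 0.0675 (adjusted p = 0.0384), although its scores overlapped, at -0.582, -0.807 and -0.413 in the tumors and -0.885, -0.779 and -0.756 in the glands. Without tumor 3, 0 of the 7 members were called, and without gland 2 or tumor 1 it was 1 each.

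STAT6 binds DNA at a palindrome of TTC and GAA that are 4 bases apart, and the promoters of the 10 highest genes and of the 7 alternatively activated macrophage genes, 16 genes in all, were searched for it. RefSeq windows (GRCm38.p6) from 250 bases before to 50 bases after the start site were at hand for 12 of them, and 3 held a match, read on either strand because the motif is its own reverse complement. Over all 32851 promoter windows, 6.95% held a match. Other lists varied. Among genes with a window, 4 of 12 inflammatory cytokine, 2 of 9 lipid synthesis and 2 of 10 interferon response genes held a match. Of the macrophage genes it was 0 of 11, and of the cytotoxic lymphocyte genes 0 of 13. Whether the 3 matches exceed the share of other genes was not tested. The stretches around them are shown because these genes were called higher, and the capitals mark the letters that match. A match is a description of the sequence and does not show binding.
Retnla, chr16:48842424-48842513, plus strand: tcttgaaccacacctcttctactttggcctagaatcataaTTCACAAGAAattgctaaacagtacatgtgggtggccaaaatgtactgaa
Pdcd1lg2, chr19:29410797-29410886, plus strand: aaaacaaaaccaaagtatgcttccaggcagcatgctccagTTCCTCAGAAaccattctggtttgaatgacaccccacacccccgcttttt
Cd209e, chr8:3854316-3854405, minus strand: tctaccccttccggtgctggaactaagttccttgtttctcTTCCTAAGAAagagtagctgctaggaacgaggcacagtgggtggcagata
Counted from the start site, the match of Retnla began at -145, that of Pdcd1lg2 at -82 and that of Cd209e at -79.

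General macrophage genes were higher as well, by smaller amounts. Of 16 members, 10 were called higher and 0 lower, with a median difference of 0.49 and 13 members without overlap. The mean score of the list was 1.79, 1.61 and 1.79 in tumors 1, 2 and 3 and 1.35, 0.982 and 1.5 in glands 1, 2 and 3, so that gland 2 was the lowest library and the gap between tumor 2 and gland 3 was narrow. The mannose receptor Mrc1 read 2.3, 1.77 and 2.4 in the tumors and 1.5, 1.27 and 1.76 in the glands, a difference of 0.647 ± 0.182 (adjusted p = 0.0197). Itgam (CD11b) differed by 0.645 ± 0.132, the scavenger receptor Msr1 by 0.559 ± 0.169 and the lysosomal protein Cd68 by 0.553 ± 0.138 (adjusted p = 0.00586, 0.0272 and 0.0112). Adgre1, which encodes F4/80, differed by 0.498 ± 0.14 (adjusted p = 0.0194). The haemoglobin scavenger receptor Cd163 was not called. Its scores were 1.93, 1.26 and 2.24 in the tumors and 1.21, 1.06 and 1.3 in the glands, with tumor 2 inside the gland range. Without tumor 3 or gland 2, 0 members of this list were called, without tumor 1 it was 1, and without tumor 2 and gland 2 together it was 3.

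Chemokines that attract monocytes accompanied these genes. Of 12 monocyte attractants, 7 were called higher and 0 lower, with a median difference of 0.677. Ccl7 read 0.7, 0.479 and 0.984 in tumors 1, 2 and 3 and -0.0496, -0.804 and -0.33 in glands 1, 2 and 3, with the lowest value in gland 2 and a difference of 1.12 ± 0.257 (adjusted p = 0.00825). Ccl8, a ligand of CCR8 in the mouse, read 2.37, 1.81 and 2.53 in the tumors and 1.28, 0.711 and 1.49 in the glands, a difference of 1.08 ± 0.256 (adjusted p = 0.00904). Ccl2 (MCP-1) and Ccl12 differed by 0.927 ± 0.232 and 0.847 ± 0.202 (adjusted p = 0.0113 and 0.00934). Ccr2, the receptor of Ccl2 on monocytes, was at 1.96, 1.59 and 1.97 in the tumors and 1.13, 0.705 and 1.4 in the glands, a difference of 0.758 ± 0.152 (adjusted p = 0.0051). All tumors exceeded all glands for each of these genes. Among 18 genes of matrix remodelling, 4 were called higher and 1 lower, and the median was 0.0863. The higher ones were the collagenase Mmp13 (1.31 ± 0.328), the macrophage elastase Mmp12 (1.12 ± 0.285), the protease inhibitor Timp1 (0.767 ± 0.232) and the urokinase receptor Plaur (0.713 ± 0.172), with adjusted p-values of 0.0114, 0.0119, 0.0277 and 0.00962. Mmp12 read 2.69, 2.08 and 1.99 in the tumors and 1.22, 0.586 and 1.58 in the glands, with tumor 1 the highest library and tumors 2 and 3 nearly equal. The inhibitor Timp3 was lower (-0.206 ± 0.0654, adjusted p = 0.0337). Without tumor 3 or gland 2, 0 of the monocyte attractants and of the remodelling genes were called in their direction, and without tumor 1 it was 2 and 0.

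Most T-cell genes were higher in 4T1 tumors, and those not called were the CD8 chains. Of 15 members, 13 were called higher and 0 lower, with a median difference of 0.627. The mean score of the list was 0.107, -0.146 and 0.156 in tumors 1, 2 and 3 and -0.528, -0.733 and -0.411 in glands 1, 2 and 3. The kinase Lck, which starts receptor signalling, read 0.55, 0.303 and 0.633 in the tumors and -0.237, -0.565 and -0.078 in the glands, a difference of 0.788 ± 0.177 (adjusted p = 0.00767). Cd5 and Zap70 differed by 0.757 ± 0.179 and 0.704 ± 0.146 and the CD3 chain Cd3d by 0.688 ± 0.174 (adjusted p = 0.00893, 0.00604 and 0.0119). Cd8a read -0.109, -0.431 and -0.142 in the tumors and -0.721, -0.821 and -0.316 in the glands, with gland 3 inside the tumor range (difference 0.392 ± 0.21, adjusted p = 0.189). Cd8b1 differed by 0.406 ± 0.178 (adjusted p = 0.109), whereas Cd4 was called at 0.441 ± 0.153 (adjusted p = 0.0482). The difference between the CD4 and CD8 genes was not tested. Of the list, 0 were called without tumor 3, 1 without gland 2 and 4 without tumor 1.

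Among 15 genes of cytotoxic lymphocytes, 10 were called higher and 0 lower, with a median difference of 0.538 and 13 members without overlap. Granzyme A (Gzma), a protease of NK and cytotoxic T-cells, read 1.04, 0.587 and 1.14 in tumors 1, 2 and 3 and 0.0736, -0.131 and 0.171 in glands 1, 2 and 3, so that all tumors lay above all glands. Its difference was 0.886 ± 0.136 (adjusted p = 0.0012), and it kept the call without tumor 3 (0.777, adjusted p = 0.0261). The transcription factor Eomes, the pore-forming Prf1 and granzyme B (Gzmb) differed by 0.805 ± 0.152, 0.736 ± 0.172 and 0.729 ± 0.198 (adjusted p = 0.00467, 0.00861 and 0.0168). Ifng, the effector cytokine of these cells, was not called at 0.211 ± 0.105 (adjusted p = 0.155). Its mean normalized count was under 10, near the floor of expression. Of the list, 1 were called without tumor 3, 1 without gland 2 and 4 without tumor 1.

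Of 16 genes of immune checkpoints and Treg, 13 were called higher and 0 lower, with a median difference of 0.623. All 16 members had the 3 tumors above the 3 glands, as did 16.2% of all genes. Ctla4, the inhibitory receptor carried by Treg, read -0.00875, -0.516 and -0.0852 in tumors 1, 2 and 3 and -1.31, -1.44 and -1.37 in glands 1, 2 and 3. The glands were close to each other and tumor 2 was the lowest tumor, with a difference of 1.17 ± 0.2 (adjusted p = 0.00369) that kept the call without tumor 3 (1.11, adjusted p = 0.0396). Pdcd1lg2 read 0.775, -0.662 and 0.529 in the tumors and -1.41, -1.42 and -1.18 in the glands, a difference of 1.55 ± 0.297 (adjusted p = 0.00467). The co-stimulatory receptors Icos and Tnfrsf9 (4-1BB) differed by 0.939 ± 0.19 and 0.802 ± 0.194 (adjusted p = 0.00538 and 0.00973). Foxp3, the transcription factor of Treg, read 0.489, 0.163 and 0.486 in the tumors and -0.0517, -0.135 and -0.108 in the glands, a difference of 0.477 ± 0.1 (adjusted p = 0.00618). Ccr8 and Ccr4, chemokine receptors of tissue Treg and the receptors of Ccl8 and Ccl22, differed by 0.759 ± 0.138 and 0.511 ± 0.138 (adjusted p = 0.00441 and 0.0165). Cd274 (PD-L1), Havcr2 (TIM-3) and Ikzf2 (Helios) were not called, with 0.318 ± 0.118 for Cd274 (adjusted p = 0.0611). Of the list, 1 were called without tumor 3, 4 without gland 2 and 8 without tumor 1, and without tumor 2 and gland 2 together it was 11.

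Antigen presentation was higher in both of its classes. Of 10 genes of MHC class II, all had the 3 tumors above the 3 glands and 8 were called higher, with a median difference of 0.692. Cd74, the invariant chain, read 3.1, 2.86 and 3.03 in tumors 1, 2 and 3 and 2.42, 1.9 and 2.61 in glands 1, 2 and 3, a difference of 0.687 ± 0.164 (adjusted p = 0.00925), with gland 2 the lowest library. The peptide-loading genes H2-DMb2, H2-DMb1 and H2-DMa differed by 0.8 ± 0.159, 0.772 ± 0.158 and 0.758 ± 0.14 (adjusted p = 0.00503, 0.00573 and 0.00441). H2-DMb1 and H2-DMb2 are close copies, so that their split is uncertain. The transactivator Ciita differed by 0.721 ± 0.18 (adjusted p = 0.0111). Of 10 genes of MHC class I, all were without overlap and 8 were called, but the median difference was 0.302. The peptide transporter Tap1 read 1.47, 1.26 and 1.35 in the tumors and 0.934, 0.722 and 1 in the glands, a difference of 0.472 ± 0.126 (adjusted p = 0.0155), and the immunoproteasome subunits Psmb9 and Psmb8 differed by 0.455 ± 0.103 and 0.396 ± 0.0931 (adjusted p = 0.00767 and 0.00879). Of 8 dendritic cell genes, 4 were called higher, among them the migration receptor Ccr7 (0.9 ± 0.258, adjusted p = 0.0215) and Batf3 (0.732 ± 0.133, adjusted p = 0.00441), a factor of cross-presenting dendritic cells. Without tumor 3, none of the class II, class I and dendritic genes was called. Without gland 2 the counts were 1, 0 and 1, and without tumor 1 they were 3, 0 and 1.

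A list of 15 genes induced by type I interferon held no call. Of its members, 0 passed limma's adjusted threshold and 0 an unadjusted p under 0.05, and the median difference was 0.0486. Only 3 of the 15 had all tumors above all glands, near the 16.2% of all genes. The hallmark of interferon alpha response, a wider set, had 18 of 96 genes called higher and 0 lower. Isg15 read 0.212, 0.434 and 0.189 in tumors 1, 2 and 3 and 0.403, 0.0263 and 0.26 in glands 1, 2 and 3, a difference of 0.0486 ± 0.144 (adjusted p = 0.838). Of 8 inflammatory macrophage genes, only Il6 was called (0.769 ± 0.136, adjusted p = 0.00391), at scores of -0.723, -0.982 and -0.201 in the tumors and -1.33, -1.53 and -1.35 in the glands. Il1b and the IFN-γ-induced chemokine Cxcl10 had all tumors above all glands, at 0.7 ± 0.253 and 0.653 ± 0.239, and missed the threshold with adjusted p-values of 0.0565 and 0.0591. Nos2, the inducible nitric oxide synthase, differed by 0.201 ± 0.164 (adjusted p = 0.402). In the list of 13 inflammatory cytokines and their regulators, 6 were called higher, including oncostatin M (Osm, 0.698 ± 0.129), the receptor antagonist Il1rn (0.762 ± 0.245) and the alarmin Il33 (0.584 ± 0.202), with adjusted p-values of 0.00441, 0.0359 and 0.0472. Il33 is a cytokine that drives type 2 responses, and read 0.985, 0.753 and 1.22 in the tumors and 0.323, 0.31 and 0.578 in the glands. Without tumor 3, 0 genes of either list were called, and without gland 2 or tumor 1 each left 1 inflammatory macrophage gene and 2 cytokine genes.

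Neutrophil genes showed a mixed pattern. Of 12 members, 4 were called higher and 0 lower, with a median difference of 0.292, and the 4 were the receptors Csf3r (0.693 ± 0.174) and Cxcr2 (0.636 ± 0.202), Retnlg (0.952 ± 0.278) and the collagenase Mmp8 (0.469 ± 0.15), with adjusted p-values of 0.0116, 0.0337, 0.0239 and 0.0344. Retnlg read 0.767, -0.351 and 1.06 in tumors 1, 2 and 3 and -0.327, -0.889 and -0.166 in glands 1, 2 and 3, so that tumor 2 lay among the glands. S100a8 and Ly6g, which are neutrophil genes too, were not called, with adjusted p-values of 0.198 and 0.76. Ly6g lay near the floor of expression, so that its missing call cannot show whether neutrophils differed. Of 7 neutrophil attractants, 1 was called, Cxcl5 (0.553 ± 0.173, adjusted p = 0.0317). Among 9 B-cell genes, 1 was called, Cd22 (0.547 ± 0.185, adjusted p = 0.0438), an inhibitory lectin. Of 6 plasma cell genes, 0 were called and 1 reached an unadjusted p under 0.05, and their mean score was lowest in gland 2, at 0.0437, against 0.778 to 1.24 in the other libraries. Of 7 mast cell genes, Ms4a2, the β-chain of the IgE receptor that basophils share, was called (0.428 ± 0.12, adjusted p = 0.0196). Of 12 complement genes, the anaphylatoxin receptors C3ar1 (0.595 ± 0.156) and C5ar1 (0.386 ± 0.127) were called (adjusted p = 0.014 and 0.0391). Without tumor 3, gland 2 or tumor 1, 0 genes of each of these lists were called.

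**Figure D3:**
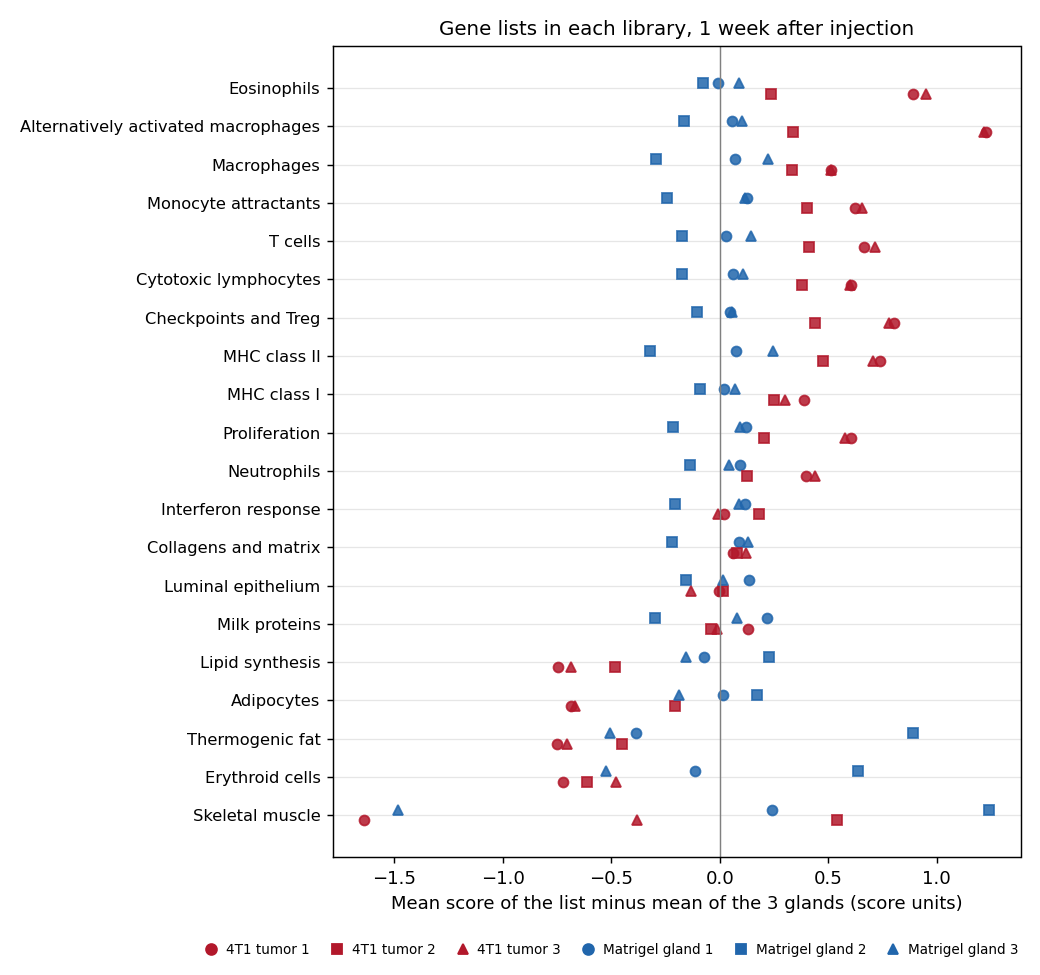
Mean score of 20 gene lists in each of the 6 libraries at 1 w p.i., after subtracting the mean of the 3 Matrigel glands (x-axis, score units), with 4T1 tumors in red and glands in blue. Tumors lay above glands for the 11 upper lists, with tumor 2 the lowest tumor of the 11, and skeletal muscle spanned the widest range in both groups.

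Proliferation genes were higher in tumors 1 and 3 and near the glands in tumor 2. Of 18 members, 16 had all tumors above all glands and 6 were called higher, with a median difference of 0.492. The mean score of the list was 0.74, 0.337 and 0.71 in tumors 1, 2 and 3 and 0.254, -0.0809 and 0.229 in glands 1, 2 and 3. The survivin gene Birc5 read 0.568, 0.0905 and 0.587 in the tumors and 0.00445, -0.456 and -0.112 in the glands, a difference of 0.603 ± 0.191 (adjusted p = 0.0337). Rrm2, a subunit of ribonucleotide reductase, and the mitotic genes Aurkb and Bub1 differed by 0.579 ± 0.184, 0.558 ± 0.171 and 0.549 ± 0.189 (adjusted p = 0.0337, 0.0296 and 0.0472). Mki67 read 1.52, 1.02 and 1.5 in the tumors and 1.02, 0.537 and 0.977 in the glands, with tumor 2 level with gland 1, and missed the threshold at 0.501 ± 0.197 (adjusted p = 0.0753). The count of 6 was fragile: 18 members were called without tumor 2 and 0 without tumor 1, tumor 3 or gland 2. Among the hallmark gene sets as the authors assigned them, G2M checkpoint had 57 of 189 genes called higher and 8 lower, and E2F targets had 49 of 191 higher and 1 lower.

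Oncofetal genes, which are silent in most adult tissues and active again in many carcinomas, held 1 call. Of 7 oncofetal genes, 3 had all tumors above all glands (16.2% of all genes did) and 1 had all tumors below (16.1%). Hmga1 was called higher (0.313 ± 0.0708, adjusted p = 0.00767). Its relative Hmga2 (chr10:120361275-120476469, mm10), a chromatin protein of embryonic tissue and many carcinomas that is nearly silent in the adult gland, read -1.31, -1.36 and -1.32 in tumors 1, 2 and 3 and -1.82, -1.82 and -1.83 in glands 1, 2 and 3. The groups were far apart compared with their own spread (SD 0.0285 in tumors and 0.00846 in glands) and all 3 tumors were alike, tumor 2 included. The spread of a nearly silent gene can be small because it lies at the floor of expression, which was not tested. Hmga2 was not called, at 0.493 ± 0.228 (adjusted p = 0.127). The fit takes its spread from all 12 groups. At 6 w p.i. the same gene differed by 3.21 (adjusted p = 1.94e-11). Vim, which encodes the mesenchymal filament vimentin, was the 1 of 9 genes of epithelial-mesenchymal transition that was called (0.349 ± 0.0755, adjusted p = 0.00667). Hmga1 and Vim lost the call without tumor 3, gland 2 or tumor 1.

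The lower genes in 4T1 tumors included those of lipid synthesis. Of 13 members, 10 had all tumors below all glands (16.1% of all genes were so), 3 were called lower and 0 higher, and the median difference was -0.699. Elovl6 (chr3:129532355-129638495, mm10) read 0.822, 1.13 and 1.09 in tumors 1, 2 and 3 and 1.86, 2.49 and 1.78 in glands 1, 2 and 3. The tumors were close together and gland 2 was the highest gland, with a difference of -1.03 ± 0.306 (adjusted p = 0.0258). Thrsp read 1.06, 1.62 and 1.26 in the tumors and 2.2, 2.58 and 2.08 in the glands, a difference of -0.974 ± 0.285 (adjusted p = 0.024). Acaca, the enzyme that commits acetyl-CoA to fatty acids, differed by -0.816 ± 0.254 (adjusted p = 0.0312). Fatty acid synthase (Fasn), Me1 and Acly lay just outside the threshold, at -0.845 ± 0.298, -0.818 ± 0.289 and -0.699 ± 0.246, with adjusted p-values of 0.0511, 0.0512 and 0.0509. In the hallmarks, fatty acid metabolism had 26 of 149 genes called lower and 8 higher, and adipogenesis had 27 of 193 lower and 4 higher. Of the lipid synthesis list, 0 members were called without tumor 1, tumor 3 or gland 2, 6 without tumor 2 or gland 3, and 7 when the fit was limited to genes whose mean normalized count was 100 or more.

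Adipocyte genes pointed the same way without a call. By limma, 0 of 15 members were called, 3 were lower at an unadjusted p under 0.05, 9 had all tumors below all glands, and the median difference was -0.548. Adiponectin (Adipoq) read 1.21, 1.83 and 1.27 in tumors 1, 2 and 3 and 2.03, 2.19 and 1.84 in glands 1, 2 and 3, so that tumor 2 lay just below gland 3 (difference -0.583 ± 0.367, adjusted p = 0.265). Slc2a4, the insulin-dependent glucose transporter GLUT4, differed by -0.685 ± 0.28 (adjusted p = 0.0867). Of 7 thermogenic genes, Ppargc1a was called lower (-0.795 ± 0.222, adjusted p = 0.0192), with scores of -0.982, -0.343 and -0.813 in the tumors and -0.268, 0.803 and -0.289 in the glands, so that gland 2 stood far above the other libraries. Of 6 Schwann cell genes, 3 were called lower, among them S100b (-0.461 ± 0.119) and Prx (-0.407 ± 0.139), with adjusted p-values of 0.0127 and 0.0452. Without tumor 1, tumor 3 or gland 2, none of these genes was called.

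Milk protein, luminal and basal genes held no call. Of the hormone and differentiation genes 20% were called lower, and of the ERBB genes 18.2%, beside 6.72% of all genes. Of 11 milk protein genes, 0 were called by limma, 1 reached an unadjusted p under 0.05 and all overlapped, with a median difference of 0.019. β-casein (Csn2) was at 3.19, 2.74 and 3.03 in tumors 1, 2 and 3 and 2.84, 2.25 and 2.71 in glands 1, 2 and 3, so that milk gene RNA was high in every library at this time after weaning. Of 12 luminal keratin and junction genes, 0 were called and 0 reached an unadjusted p under 0.05, and Krt8 differed by 0.00706 ± 0.081 (adjusted p = 0.964). The 9 basal and myoepithelial genes gave the same counts of 0 and 0, and Krt5 differed by 0.0388 ± 0.236. Among 10 genes of hormone-sensing and secretory differentiation, 2 were called lower, Foxa1 and Prlr. Foxa1, the pioneer factor of estrogen receptor-positive cells, read 0.12, 0.271 and 0.124 in the tumors and 0.764, 0.77 and 0.536 in the glands, a difference of -0.518 ± 0.121 (adjusted p = 0.00855). The prolactin receptor Prlr read 1.24, 1.49 and 1.06 in the tumors and 1.82, 1.8 and 1.7 in the glands, a difference of -0.506 ± 0.147 (adjusted p = 0.0229). All tumors lay below all glands for both. Of 11 ERBB receptors and ligands, Erbb4 (-0.409 ± 0.132) and Btc (-0.26 ± 0.083) were lower (adjusted p = 0.0354 and 0.0341). Of 7 keratinocyte genes, which would mark skin in the dissection, 0 were called and 0 reached an unadjusted p under 0.05, and the mean scores lay between -1.4 and -1.1 in all 6 libraries. The 4 calls of this paragraph were lost without tumor 1, tumor 3 or gland 2.

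The lists of stroma, vessels, hypoxia and involution held at most 2 calls each. Over all genes, 9.91% were called higher and 6.72% lower. The share higher was 10% for fibroblast and 16.7% for involution genes, and the share lower was 12.5% for VEGF and angiopoietin genes. Of 14 collagen and matrix genes, 0 were called and 1 reached an unadjusted p under 0.05 (median 0.086), and Col1a1 read 2.58, 2.77 and 2.72 in tumors 1, 2 and 3 and 2.71, 2.09 and 2.85 in glands 1, 2 and 3. Of 10 fibroblast genes, 1 was called, Thy1 (0.307 ± 0.102, adjusted p = 0.0411), which T-cells carry as well. Of 10 endothelial genes, 0 were called and 2 were lower at an unadjusted p under 0.05, and of 4 lymphatic genes, Prox1 was lower (-0.343 ± 0.115, adjusted p = 0.0413), a call that was lost without any 1 of the 6 libraries. Vegfa was the 1 of 8 VEGF and angiopoietin genes that was called. It was lower in 4T1 tumors, at 0.802, 0.972 and 0.626 in the tumors and 1.11, 1.36 and 1.07 in the glands, a difference of -0.381 ± 0.102 (adjusted p = 0.0155). Of 14 genes of hypoxia and glycolysis, Ankrd37 was higher (0.374 ± 0.117) and Pdk1 lower (-0.373 ± 0.0991), with adjusted p-values of 0.0322 and 0.015. Of 12 genes of involution and its acute phase response, the lysosomal protease Ctsb (0.299 ± 0.077) and the NF-κB regulator Bcl3 (0.314 ± 0.0919) were higher (adjusted p = 0.0128 and 0.024), whereas Lcn2 and Stat3, which are induced at weaning, differed by 0.0478 ± 0.127 and 0.046 ± 0.0557 and were not called. Saa3 had the largest difference of this list, at 0.923, and was not called. By limma, 5 of the 12 were higher at an unadjusted p under 0.05. Without tumor 1, tumor 3 or gland 2, none of these genes was called.

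A list of 31 genes was taken from the proteins measured by other assays. Of these genes, 13 were called higher and 1 lower. Those not yet given were Ptprc, which encodes the pan-leukocyte marker CD45, Tgfb1, Itgax (CD11c), Il10, Cd3e and Pdcd1. Ptprc read 1.87, 1.57 and 1.84 in tumors 1, 2 and 3 and 1.26, 0.795 and 1.36 in glands 1, 2 and 3, a difference of 0.62 ± 0.14 (adjusted p = 0.00768). Tgfb1 read 1.59, 1.34 and 1.55 in the tumors and 1.09, 0.844 and 1.2 in the glands, a difference of 0.449 ± 0.0886 (adjusted p = 0.00497). All tumors were above all glands for both genes. Itgax differed by 0.877 ± 0.231, Il10 by 0.383 ± 0.115, Cd3e by 0.674 ± 0.166 and Pdcd1 by 0.517 ± 0.159 (adjusted p = 0.0146, 0.0261, 0.0105 and 0.0294). Among those not called, Mmp9 differed by 0.336 ± 0.214 (adjusted p = 0.27), Chil1, the gene of CHI3L1, by -0.199 ± 0.209 (adjusted p = 0.527) and Tnf by 0.127 ± 0.113 (adjusted p = 0.445). Of the list, 0 were called without tumor 3, 1 without gland 2 and 3 without tumor 1.

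**Figure D4:**
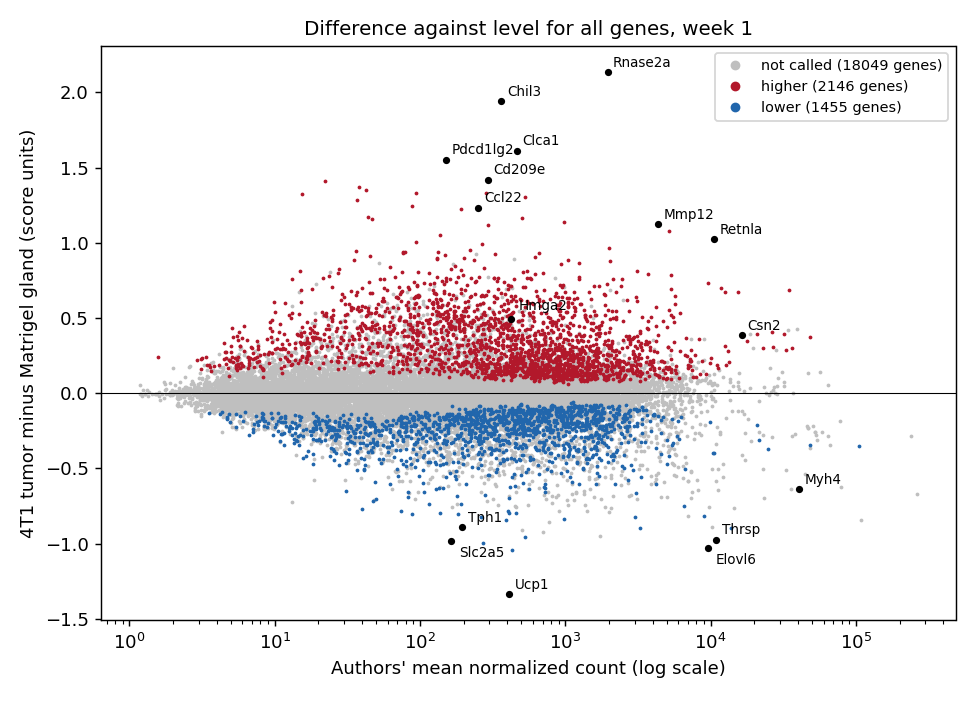
Difference between 4T1 tumors and BALB/c Matrigel glands at 1 w p.i. (y-axis, score units) against the authors' mean normalized count (x-axis, log scale) for all genes, with called genes in red (2146 higher) and blue (1455 lower) and genes named on the plot in black. Hmga2, Csn2, Myh4 and Ucp1 are labelled although they were not called.

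The same comparison at later time points and in the Py230 model shares no library with the one at 1 w p.i. Tests of the difference of differences asked whether a week 1 difference departed from the other. Against 3 w p.i., where 704 genes were called (3.25%, with 2.1% higher and 1.15% lower), 1 gene departed (0.00462%), the neuropeptide gene Npw, and 964 genes did so at an unadjusted p under 0.05 (4.45%). Npw was picked out only after its values were seen, has a mean normalized count of 4.86 and departed by 0.302 ± 0.0502 (adjusted p = 0.0469). Its call was lost without tumor 1, tumor 2, gland 2 or gland 3 in turn. The list medians at 3 w p.i. were 0.62 for T cells, 0.638 for MHC class II, 0.588 for alternatively activated macrophages and -0.558 for lipid synthesis, beside 0.627, 0.692, 0.805 and -0.699 at 1 w p.i.

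Against 6 w p.i., where 13015 genes were called (60.1%, with 38.6% higher and 21.5% lower), 7064 departed (32.6%), of which 2275 had the higher difference at week 1 (10.5%) and 4789 the lower (22.1%). Some type 2 genes were among those with the higher difference at week 1. Retnla was 1.02 at 1 w p.i. and -1.99 at 6 w p.i. (adjusted p = 1.78e-07), so that its sign turned, and the departure was 3.02 ± 0.346 (adjusted p = 3.35e-07). Rnase2a and Clca1 departed by 2.36 ± 0.43 and 1.98 ± 0.515 (adjusted p = 0.000143 and 0.00446). Cd209e departed too, by 1.68 ± 0.414 (adjusted p = 0.00285). Chil3 and Pdcd1lg2 did not depart, at 0.556 ± 0.619 and 0.616 ± 0.419 (adjusted p = 0.517 and 0.268). At 6 w p.i. both were still called higher, at 1.39 and 0.935 (adjusted p = 0.00831 and 0.00861). Of the alternatively activated macrophage genes, 4 of 7 departed upward at week 1, as did 4 of 9 eosinophil genes. Mast cell genes departed upward for 5 of 7, but their median was -0.202 at week 1 and -0.823 at week 6. At week 1, 1 of them was called higher, and at week 6, 5 were called lower. In the other direction, 7 of 12 neutrophil genes and 5 of 7 neutrophil attractants had the lower difference at week 1. Milk protein genes had a median difference of 0.019 at week 1 and -2.05 at week 6, with 8 of 11 departing. Adipocyte genes went from a median of -0.548 to -2.07, with 13 of 15 departing. Hmga2, the bone matrix gene Dmp1 and the epithelial antigen gene Gpa33 had the lowest departures by the same rule as for the leading genes, at -2.72 ± 0.323, -2.34 ± 0.226 and -2.1 ± 0.26 (adjusted p = 5.54e-07, 2.96e-08 and 9.58e-07). At week 1, Dmp1 read -0.48, -0.609 and -0.544 in the tumors and -0.809, -0.849 and -0.814 in the glands. Leaving out each of the 6 libraries gave 6197 to 6817 departing genes.

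**Figure D5:**
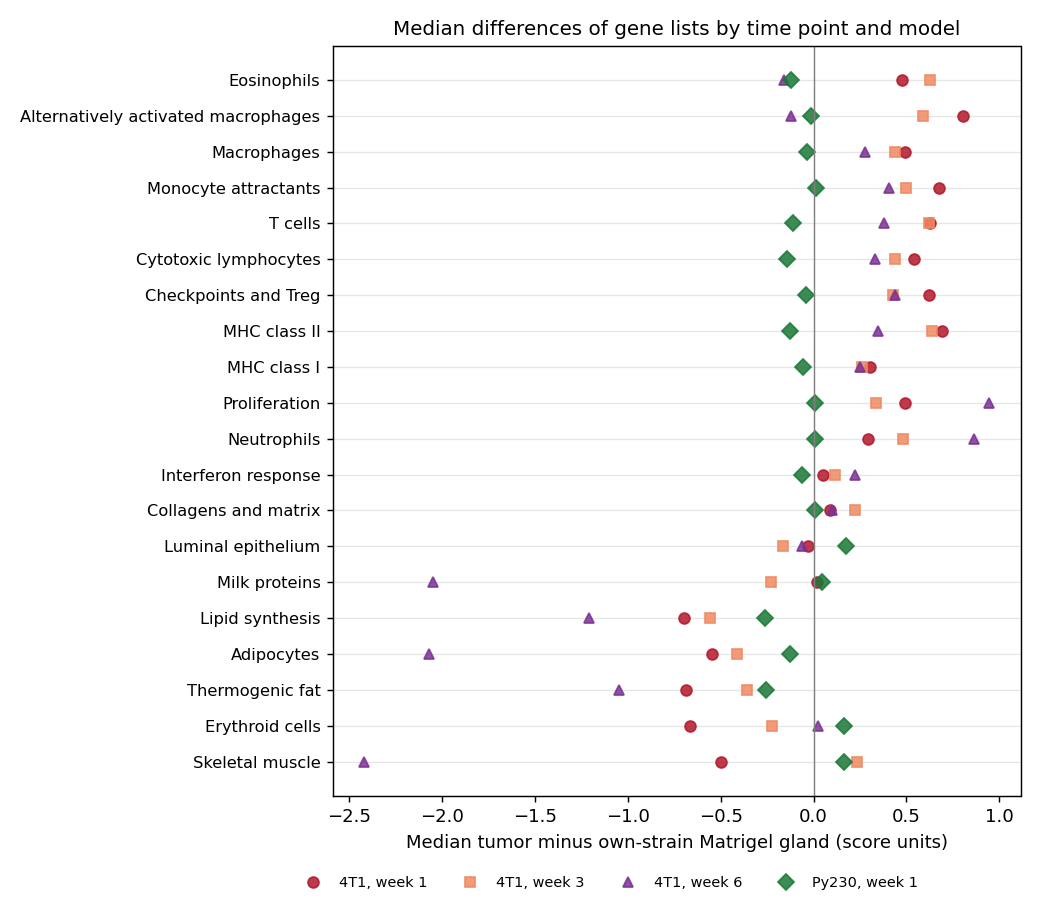
Median over the genes of each of 20 lists of the difference between tumors and Matrigel glands of the same strain and time (x-axis, score units), for 4T1 at weeks 1, 3 and 6 and for Py230 at week 1. The week 1 and week 3 medians of 4T1 lay on the same side of 0 for the immune and the fat lists plotted, and those of Py230 at week 1 lay between -0.262 and 0.174.

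In the Py230 model, a C57BL/6 line with C57BL/6 Matrigel glands, 2 genes were called at 1 w p.i. (0.00924%), both lower and at low counts. They were Igkv3-3 and Hmgb1-ps8, named after their values were seen, and 1547 genes reached an unadjusted p under 0.05 (7.15%). The 4T1 difference departed from that of Py230 for 66 genes (0.305%), of which 52 were higher in 4T1 (0.24%) and 14 lower (0.0647%), and cell line and mouse strain cannot be told apart in this test. Rnase2a had a difference of -0.144 in Py230 and departed by 2.28 ± 0.43 (adjusted p = 0.0351). Ccr2 and Gzma departed by 1.1 ± 0.215 and 1.07 ± 0.192 (adjusted p = 0.0351 and 0.0338). Further members of the lists were H2-DMb2, H2-DMa, Batf3, Eomes, Ncr1 and Cd2, all higher in 4T1. On the other side, Capsl, Nav2 and the long non-coding RNA Firre departed by -0.634 ± 0.139, -0.398 ± 0.0872 and -0.33 ± 0.0748 (adjusted p = 0.0484, 0.0484 and 0.0499). The count of 66 rested on single libraries, being 0 without tumor 3 or gland 2, 2 without tumor 1, 4 without gland 1, 404 without gland 3 and 1784 without tumor 2.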

How the data were processed

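The authors isolated total RNA from flash-frozen tumors and glands, prepared stranded libraries, mapped paired reads with STAR to mm10, counted them per gene and normalized with DESeq2. Versions are not given in the sources used here. The deposited expression values are scores with a mean of 0 and an SD of 1 within each library, a step the methods do not describe, so no count model was used and depth is unknown. A further deposited table gave the authors' mean normalized count, and another the hallmark membership of genes. Columns of the authors' own fold changes and p-values were not used, and 0 columns were unmapped.

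Scores were fitted with limma 3.58.1 in R 4.3.3, with 1 mean for each of the 12 groups over 36 libraries, empirical Bayes with trend and robust options, and Benjamini-Hochberg adjustment over 21650 genes at 0.05. The code was tested on simulated data. The members, the 43 gene lists and the tests were chosen with earlier results of these data known. A rule named the 10 called genes with the largest difference in each direction, without overlap and at mean normalized counts of 100 or more, up to 4 called members per list with further members where a list is described, the genes of measured proteins, and the 3 most extreme departures in each direction. Further members such as Ccl11, and genes outside the lists such as Npw, were named after their values were seen. Of 456 listed genes, 451 were measured, 4 of them under another symbol. Names of 5384 genes came from the reference table, and coordinates from GENCODE vM21 on the same build. Alternatives comprised other scalings, filters, thresholds and left-out libraries. A few genes and gene sets are not reported here.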

Additional observations from a re-analysis of the deposited data

Results flagged for a closer look

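Several differences at 1 w p.i. departed by limma's test of the difference of differences from the same contrast at another time point or in the other model. Against 6 w p.i., 7064 genes departed, with Retnla at 3.02, Rnase2a at 2.36 and Clca1 at 1.98 on the side of week 1 and Hmga2 at -2.72, Dmp1 at -2.34 and Gpa33 at -2.1 on the side of week 6 (score units). Against 3 w p.i., 1 gene departed. Against the Py230 model at 1 w p.i., 66 genes departed. Among them, Rnase2a departed by 2.28, Ccr2 by 1.1, Gzma by 1.07, Eomes by 1.03, H2-DMb2 by 1, H2-DMa by 0.929, Batf3 by 0.929, Ncr1 by 0.856 and Cd2 by 0.84 toward 4T1, and Capsl by -0.634, Nav2 by -0.398 and Firre by -0.33 the other way. Tumor 2 lay nearer to the glands than tumors 1 and 3 for these 9 genes, and the count of 66 was 1784 without it. Groups of 3 libraries are too small for a check of single outlying samples.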

How the results depend on the processing

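The direction of the 471 listed or named genes turned in 0 cases with a call, but the number of calls varied. A fit of only the libraries compared called 0 genes higher, 0 lower, 0 against week 3 and 0 against Py230, and hence 0 members of every list, at the same threshold. Nominal p-values under 0.05 gave 3864 higher and 3515 lower genes, with 18 proliferation, 10 lipid synthesis and 3 adipocyte genes. A minimum difference of 0.5 left 426 and 90, with 6 macrophage and 3 eosinophil genes. With the replicate number as a block, 2426 genes were higher and 1643 lower and 11 proliferation genes were called, and among the listed or named genes 0 calls were lost and 13 gained. Same-numbered libraries are not documented as pairs, and their deviations from the group means correlated at 0.056, 0.314 and 0.204. Cyclic loess gave 11 proliferation and 6 lipid synthesis genes. Limiting the fit to mean normalized counts of 10 or more gave 6 lipid synthesis genes. At 100 or more it was 7 lipid synthesis and 10 proliferation genes, and 6 T cell, 5 checkpoint and 3 eosinophil genes, of which fewer members were then tested. Quantile normalization gave 103 genes against Py230 and 0 against week 3. The cause of these changes was not tested otherwise.

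Leaving out each library in turn gave 16 to 3169 genes higher, 16 to 2145 lower, 0 to 1 against week 3, 6197 to 6817 against week 6 and 0 to 1784 against Py230. The ranges of list members called were 0 to 14 for T cells, 1 to 15 for checkpoints and Treg, 0 to 13 for macrophages, 0 to 7 for alternatively activated macrophages, 0 to 9 for MHC class II, 1 to 9 for eosinophils, 0 to 18 for proliferation, 0 to 6 for lipid synthesis and, for adipocytes, 0 with 1 exception of 1 gene without tumor 2. After the data were seen, tumor 2 and gland 2 were left out together, which gave 1755 higher and 1080 lower genes, 1009 against Py230, 0 against week 3, 3 macrophage, 2 proliferation and 0 lipid synthesis genes. The muscle covariate, added likewise, gave 0 against week 3 and 61 against Py230. Scores hold no depth, so counting error cannot be given.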

Other observations

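Among the hallmarks, allograft rejection had 92 of 179 genes called higher and 1 lower, beside 9.91% and 6.72% over all genes, with a median difference of 0.275. IL6-JAK-STAT3 signaling had 32 of 78 genes called higher and 1 lower, inflammatory response 62 of 184 and 4, and interferon gamma response 61 of 193 and 1. Epithelial-mesenchymal transition had 20 of 183 higher and 7 lower, and angiogenesis 4 of 32 and 1. Myogenesis had 7 of 187 higher and 16 lower, and its mean score was 0.337, 0.794 and 0.499 in tumors 1, 2 and 3 and 0.744, 1.04 and 0.451 in glands 1, 2 and 3, in the order of the muscle genes. Complement had 59 of 173 genes higher and 7 lower, IL2-STAT5 signaling 58 of 185 and 12, TNFα signaling via NF-κB 53 of 185 and 4, mTORC1 signaling 36 of 188 and 7, mitotic spindle 35 of 195 and 18 and MYC targets 25 of 180 and 1. More genes were lower than higher in the UV response down set (23 and 10 of 135) and in bile acid metabolism (16 and 6 of 95). A further 6 hallmarks (WNT-β-catenin, DNA repair, xenobiotic metabolism, spermatogenesis, androgen response and coagulation) had between 3 and 19 genes higher and between 2 and 12 lower. All of these calls came from the fit of all libraries, and the hallmarks were not refitted without single libraries.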
